A study of Mus musculus with 8 samples.

Results

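Glycosaminoglycans are long sugar chains that most cells attach to core proteins, forming proteoglycans, or release as free hyaluronan. The genes described here encode the enzymes that build the linker between protein and chain, extend and sulfate heparan sulfate, extend and sulfate chondroitin and dermatan sulfate, make hyaluronan, and supply activated sulfate and sugar. The list holds 46 genes chosen by symbol, and 45 of them had a row on the arrays among 24675 named genes. Ndst1 was not analysed here.

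RNA from C57Bl/6 mouse embryos at embryonic day 12.5 was hybridised to Affymetrix Gene 2.0 ST arrays. Ventral tissue lay beneath the dorsal aorta and dorsal tissue between its roof and the notochord, and each was cut from unfixed cryosections by laser from the same embryos. There were 4 ventral and 4 dorsal arrays, numbered 1 to 4 in each tissue, and no embryo carried a stated mutation or treatment. The tissues are mixtures, so a difference in bulk RNA cannot tell fewer cells of a type from less RNA per cell.

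Heparan sulfate binds growth factors such as FGFs, Hedgehog proteins and VEGF, and the pattern of its sulfate groups sets what it binds. Chondroitin sulfate on aggrecan gives cartilage its swelling pressure, and hyaluronan holds aggrecan in the matrix. Every sulfation step in the Golgi draws on PAPS, the activated sulfate made by the PAPS synthases. Growing cartilage, which lies near the notochord at this stage, has a high demand for sulfate.

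Values are log2 RMA intensities, which were normalised between arrays, so each difference is set against the rest of the array. A gene was tested if it exceeded the array median (3.59 to 3.65) on at least 4 of the 8 arrays. That held for 31 of the 45 enzymes and for 12416 genes in all. Over genes, which are not replicates, r was 0.907 to 0.948 among ventral arrays, 0.907 to 0.957 among dorsal arrays and 0.907 to 0.936 across the tissues. These ranges overlap. Marker lists showed what else the samples held. The mean of 18 cartilage and sclerotome genes was 4.33 to 4.54 on ventral arrays and 5.23 to 6.01 on dorsal arrays. Neural tube genes averaged 3.59 to 4.36 on ventral arrays, 5.53 on dorsal array 1 and 3.60 to 3.90 on the other dorsal arrays. Liver genes averaged 5.81 on ventral array 4 and 7.64 on dorsal array 4, against 3.45 to 3.62 elsewhere. Erythroid genes averaged 6.83 to 7.65 on ventral arrays, 8.72 on dorsal array 4 and 6.75 to 7.01 on the other dorsal arrays. Visceral mesenchyme genes averaged 4.86 to 5.92 on ventral and 4.33 to 4.72 on dorsal arrays.

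The enzymes with the lowest p-values were spread over several steps of the pathway. Papss2, Ugdh, Xylt1 and Sulf2 were lower and Ext1 and Sulf1 higher in ventral tissue at an unadjusted p under 0.05. None passed the test over all genes. With limma, 0 of 31 enzymes had a Benjamini-Hochberg adjusted p under 0.05, as did 0 of all 12416 genes (0.0%). The smallest adjusted p among the enzymes was 0.412, that of Xylt1. Without the replicate number in the fit, 0 enzymes and 4 genes (0.0322%) were called.

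At an unadjusted p under 0.05 there were 6 of 31 enzymes (19.4%), against 8.26% of all genes tested. Of the 6, 4 were lower in ventral tissue (background 4.18%) and 2 higher (background 4.08%). Without the replicate number in the fit there were 4 (Xylt1, Ext1, Papss2 and Ndst2), against 7.99% of all genes. Sulf1, Sulf2 and Ugdh then had unadjusted p = 0.061, 0.168 and 0.08. Ventral and dorsal values did not overlap for 1 of 31 enzymes (3.23%), against 4.39% of genes, and 6 of 31 (19.4%) differed in the same direction in all 4 replicate numbers, against 16.4%. The median difference (ventral minus dorsal) was -0.05 over the 31 enzymes and 0.00 over all genes tested, with 12 of 31 enzymes higher in ventral tissue (38.7%, against 49.2% of genes) and 19 lower. The median size of a difference, without its sign, was 0.23 for the enzymes and 0.16 for all genes.

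**Figure D1:**
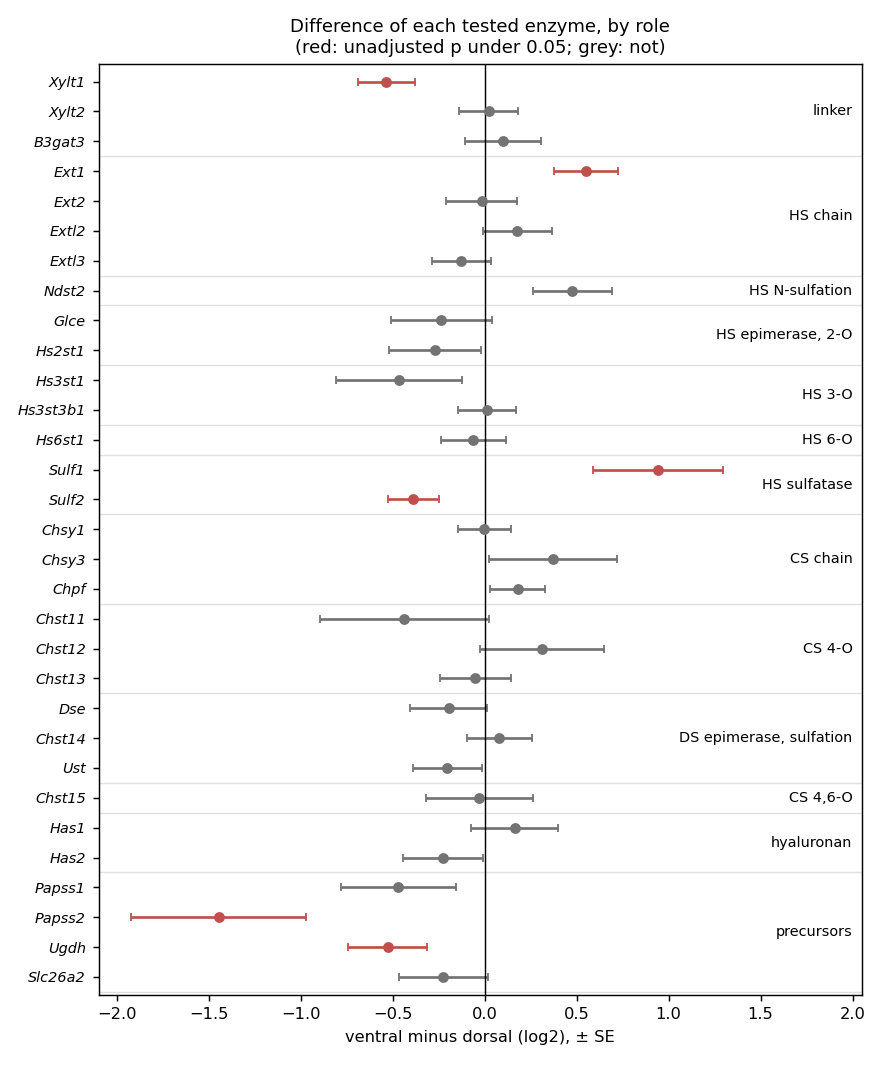
Difference between ventral and dorsal tissue (log2, ventral minus dorsal, horizontal axis) for each of the 31 tested enzymes, ordered by role from top to bottom, with bars of 1 SE from limma. HS is heparan sulfate, CS chondroitin sulfate and DS dermatan sulfate. The points run from -1.45 (Papss2) to 0.94 (Sulf1), and the 4 precursor genes all lie left of 0.

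The supply of activated sulfate and sugar held the enzyme with the widest difference. Papss2, a PAPS synthase needed for normal cartilage growth in mice, had 4.29, 3.46, 4.22 and 3.60 in ventral arrays 1 to 4, against 4.73, 6.40, 6.51 and 3.73 in dorsal arrays 1 to 4. Dorsal arrays 2 and 3 stood highest, dorsal array 1 lay above the ventral range and dorsal array 4 inside it. The difference was -1.45 (SE 0.48, unadjusted p = 0.019, adjusted p = 0.473), lower in ventral tissue in 4 of 4 replicate numbers by 0.13 to 2.94. Without replicate number 2 it was -0.95. Papss2 exceeded the array median on 2 of 4 ventral arrays and 4 of 4 dorsal arrays, so background may limit its ventral values.

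Ugdh makes UDP-glucuronate, a building block of heparan sulfate, chondroitin sulfate and hyaluronan alike. It stood at 6.56, 6.63, 7.52 and 6.77 in ventral arrays 1 to 4 and at 7.44, 7.64, 7.75 and 6.77 in dorsal arrays 1 to 4. Dorsal array 4 was again the lowest of its tissue, level with ventral array 4, and ventral array 3 lay among the dorsal values. The difference was -0.53 (SE 0.22, unadjusted p = 0.043, adjusted p = 0.589). Leaving out 1 replicate number gave -0.70 to -0.37, with an unadjusted p under 0.05 only without number 4.

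The other PAPS synthase, Papss1, averaged 4.80 ± 0.43 in ventral and 5.27 ± 0.43 in dorsal tissue (SD, n = 4 each), a difference of -0.47 (SE 0.31). It was -0.15 without replicate number 2 and -0.80, with an unadjusted p under 0.05, without number 3. The sulfate transporter Slc26a2 averaged 3.96 ± 0.19 in ventral and 4.18 ± 0.55 in dorsal tissue (SD, n = 4 each). Its dorsal values were 3.69, 4.79, 4.51 and 3.74 on arrays 1 to 4, so arrays 2 and 3 were the high ones, as for Papss2. All 4 precursor genes were lower in ventral tissue by their means (median difference -0.50). At an unadjusted p under 0.05 there were 2 of them, against 4.18% of all genes tested that were lower at that threshold. Without the replicate number in the fit there was 1, Papss2.

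The upstream sequences of Papss2 and Ugdh are shown because these are the 2 precursor genes with an unadjusted p under 0.05. They are the 250 bases before each start site that RefSeq lists in mouse build GRCm38.p6, read 5′ to 3′ on the gene's strand. RefSeq lists 2 start sites for Papss2, at chr19:32595465-32595714 and chr19:32619755-32620004 (plus strand), and 1 for Ugdh at chr5:65435843-65436092 (minus strand). Capitals mark a SOX core (AACAAT or ACAAAG) or a GC box (GGGCGG) on either strand, and ACAAAG can share its last base with a GC box, while the SOX cores cannot overlap each other.
Papss2 start 1: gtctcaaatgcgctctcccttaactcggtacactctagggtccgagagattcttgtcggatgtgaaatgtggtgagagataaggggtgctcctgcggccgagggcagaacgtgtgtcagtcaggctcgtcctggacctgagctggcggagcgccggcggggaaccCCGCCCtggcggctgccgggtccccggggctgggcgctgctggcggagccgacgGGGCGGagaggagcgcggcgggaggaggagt
Papss2 start 2: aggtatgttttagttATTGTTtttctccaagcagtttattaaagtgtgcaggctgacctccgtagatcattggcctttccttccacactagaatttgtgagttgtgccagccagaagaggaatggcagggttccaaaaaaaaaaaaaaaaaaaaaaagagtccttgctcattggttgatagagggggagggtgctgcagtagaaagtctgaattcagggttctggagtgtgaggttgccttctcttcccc
Ugdh: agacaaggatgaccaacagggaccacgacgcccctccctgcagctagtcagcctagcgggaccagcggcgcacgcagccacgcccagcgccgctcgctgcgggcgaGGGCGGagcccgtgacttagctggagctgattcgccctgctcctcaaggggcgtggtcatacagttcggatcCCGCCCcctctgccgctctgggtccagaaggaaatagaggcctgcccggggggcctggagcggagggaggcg
The upstream window of Papss2 start 1 is 67.6% G or C with 2 GC boxes, that of start 2 is 43.2% G or C with 1 AACAAT match and no GC box, and that of Ugdh is 69.2% G or C with 2 GC boxes. The arrays do not tell which Papss2 start was used. Of the 46 enzymes, 35 had an upstream window in that table, 44 windows in all. A GC box occurred in 25 of these 44 (56.8%) and in 32.7% of all 32851 windows, AACAAT in 2 (4.55%) and in 9.42% of all, and ACAAAG in 1 (2.27%) and in 16.5% of all. The median share of G or C was 63.6% in the enzymes' windows and 52.4% in all windows. These matches describe letters only.

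**Figure D2:**
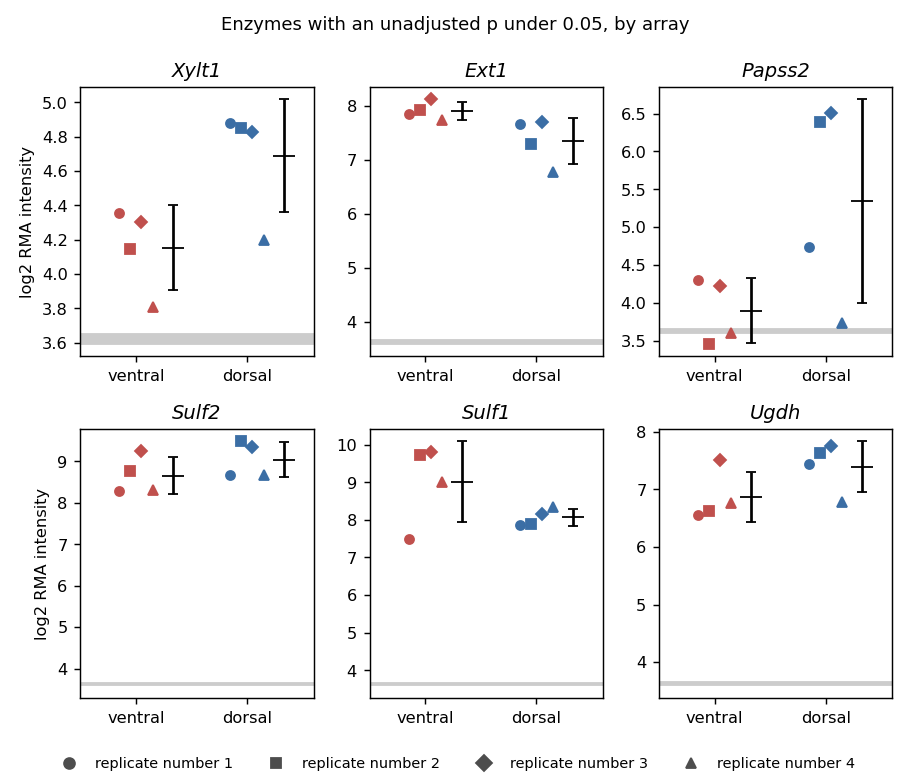
Values (log2 RMA intensity) of the 6 enzymes with an unadjusted p under 0.05, ventral arrays in red on the left of each panel and dorsal arrays in blue on the right, with a symbol for each replicate number. Black lines are means ± SD (n = 4 each), grey bands are the range of array medians (3.59 to 3.65), and vertical scales differ between panels. Ventral and dorsal points are apart for Ext1 and overlap for the others.

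The linker that joins chain to protein starts with xylose, added by the xylosyltransferases Xylt1 and Xylt2. Xylt1 had 4.35, 4.15, 4.30 and 3.81 in ventral arrays 1 to 4, against 4.88, 4.85, 4.83 and 4.20 in dorsal arrays 1 to 4. It was lower in ventral tissue in each replicate number, and the groups overlapped through dorsal array 4 alone. The difference was -0.54 (SE 0.16, unadjusted p = 0.011, adjusted p = 0.412), the lowest p among the enzymes. Its value stayed between -0.58 and -0.48 when any replicate number was left out.

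Xylt2 averaged 3.70 ± 0.18 in ventral and 3.68 ± 0.37 in dorsal tissue (SD, n = 4 each), a difference of 0.02 (SE 0.16). The glucuronyltransferase B3gat3, which adds the last sugar of the linker, differed by 0.10 (SE 0.20). The galactosyltransferases B4galt7 and B3galt6, which act between them, exceeded the array median on 3 and 2 arrays and were not tested. Neither tested difference exceeded its SE.

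Heparan sulfate is extended by the polymerase formed by Ext1 and Ext2. Ext1 stood at 7.85, 7.92, 8.11 and 7.73 in ventral arrays 1 to 4 and at 7.66, 7.29, 7.69 and 6.76 in dorsal arrays 1 to 4. Every ventral value lay above every dorsal value, by a margin of a few hundredths between ventral array 4 and dorsal array 3. The difference was 0.55 (SE 0.17, unadjusted p = 0.015, adjusted p = 0.445), higher in ventral tissue in 4 of 4 replicate numbers. Without replicate number 4 it was 0.41, with an unadjusted p no longer under 0.05 in limma. Liver and erythroid genes were highest on dorsal array 4, where Ext1 was lowest. Mesothelium genes were highest there too (list mean 5.40) and endothelium genes lowest (4.19). Xylt1, Papss2 and Ugdh were also lowest among dorsal arrays on array 4, while Sulf1 was highest among them. The part of these 4 lists in the enzyme values was not tested. Ext2, the partner of Ext1, averaged 5.29 ± 0.16 in ventral and 5.31 ± 0.15 in dorsal tissue (SD, n = 4 each), a difference of -0.02 (SE 0.19). Whether the differences of Ext1 and Ext2 differ from each other was not tested. Extl3, which starts the heparan sulfate chain, differed by -0.13 (SE 0.16) and Extl2 by 0.18 (SE 0.19), while Extl1 was under the array median on all arrays.

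The extracellular sulfatases Sulf1 and Sulf2 remove sulfate groups from finished heparan sulfate outside the cell, and their means differed in opposite directions. In replicate number 1 both were lower in ventral tissue, with differences of -0.38 and -0.37. Whether the differences of Sulf1 and Sulf2 differ from each other was not tested. Sulf1 had 7.48, 9.74, 9.80 and 9.01 in ventral arrays 1 to 4, against 7.86, 7.89, 8.15 and 8.35 in dorsal arrays 1 to 4. Ventral arrays 2 to 4 exceeded all dorsal arrays, and ventral array 1 was the lowest of the 8. The difference was 0.94 (SE 0.36, unadjusted p = 0.033, adjusted p = 0.549). It was 1.38 without replicate number 1, the only omission that left the unadjusted p under 0.05, and 0.64 without number 2. Smooth muscle genes were also lowest on ventral array 1 among ventral arrays (list mean 4.94, against 5.36 to 5.97 on the others) and sympathoadrenal genes highest there (7.43, against 4.39 to 6.32). Ventral array 3, where Sulf1 was highest, came nearest to array 1 in both lists (5.36 and 6.32), so they did not follow Sulf1 there. Of the 10 smooth muscle genes 9 had a higher mean in ventral tissue, with list means of 4.94 to 5.97 on ventral and 4.58 to 4.996 on dorsal arrays, and none was under the array median throughout. Of the 10 sympathoadrenal genes 9 were higher, with list means of 4.39 to 7.43 and 4.42 to 5.30. Visceral mesenchyme genes were lowest among ventral arrays on array 1 as well (4.86, against 5.15 to 5.92 on the others), with 8 of 10 higher in ventral tissue and 1 under the array median throughout. Macrophage and mesothelium genes were highest among ventral arrays on array 1 (5.64 and 5.24), with 12 of 12 and 7 of 10 higher in ventral tissue. The part of these lists in the Sulf1 values was not tested.

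Sulf2 stood at 8.29, 8.76, 9.24 and 8.31 in ventral arrays 1 to 4 and at 8.67, 9.48, 9.34 and 8.67 in dorsal arrays 1 to 4. It was lower in ventral tissue within each replicate number, although the ranges of the tissues overlapped. Replicate numbers 2 and 3 were high in both tissues. The difference was -0.39 (SE 0.14, unadjusted p = 0.027, adjusted p = 0.524). Leaving out 1 replicate number gave -0.48 to -0.28, with an unadjusted p under 0.05 only without number 3.

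Among the Golgi enzymes that modify heparan sulfate, 6 of 11 with a row were tested and none had an unadjusted p under 0.05. Ndst2, which swaps acetyl groups for sulfate on glucosamine, had the widest positive difference, 0.48 (SE 0.21, unadjusted p = 0.061, adjusted p = 0.624), at 5.45 ± 0.28 in ventral and 4.98 ± 0.24 in dorsal tissue (SD, n = 4 each). Glce, the epimerase that turns glucuronate into iduronate, differed by -0.24 (SE 0.28). Hs2st1, which sulfates the iduronate, differed by -0.27 (SE 0.25) and the glucosamine sulfotransferase Hs6st1 by -0.06 (SE 0.18). Ndst3, Ndst4 and Hs6st3 were under the array median on all 8 arrays, and Hs3st3a1 and Hs6st2 exceeded it on 3 and 2.

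Hs3st1 makes the rare sulfated site that binds antithrombin. It had 4.35, 3.93, 3.95 and 4.23 in ventral arrays 1 to 4, against 6.22, 4.07, 3.70 and 4.35 in dorsal arrays 1 to 4. The dorsal mean rested on array 1, and without replicate number 1 the difference of -0.47 (SE 0.34) became 0.00. Neural tube genes were highest on that same array (list mean 5.53, against 3.59 to 4.36 on ventral and 3.60 to 3.90 on the other dorsal arrays). Of those 14 genes 11 had a lower mean in ventral tissue and 4 were under the array median throughout. Their part in the Hs3st1 value was not tested. Its relative Hs3st3b1 differed by 0.01 (SE 0.16).

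Chondroitin sulfate chains are begun by Csgalnact1 and Csgalnact2 and extended by the Chsy and Chpf proteins. Csgalnact1, Csgalnact2 and Chpf2 exceeded the array median on 2, 1 and 3 arrays and were not tested. Chsy1 averaged 7.91 ± 0.08 in ventral and 7.91 ± 0.24 in dorsal tissue (SD, n = 4 each), a difference of 0.00 (SE 0.14). Chpf differed by 0.18 (SE 0.15). Chsy3 had 4.69, 6.29, 5.54 and 4.93 in ventral arrays 1 to 4, against 5.15, 4.67, 4.97 and 5.18 in dorsal arrays 1 to 4. Its highest values came from ventral arrays 2 and 3, where Sulf1 was also highest, and its difference of 0.37 (SE 0.35) was -0.04 without replicate number 2.

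Chondroitin sulfotransferases place sulfate on the galactosamine. Chst11, which is needed for cartilage development in mice, had 5.72, 4.27, 5.80 and 4.25 in ventral arrays 1 to 4, against 4.54, 5.95, 5.74 and 5.56 in dorsal arrays 1 to 4. There was a low set of 3 arrays and a high set of 5, and each set held both tissues, and the difference was -0.44 (SE 0.46, unadjusted p = 0.373). It was -0.98, with an unadjusted p under 0.05, without replicate number 1, and -0.02 without number 2. Chst12, of the same specificity, had its highest values on ventral array 1 (4.53) and dorsal array 4 (4.55), and differed by 0.31 (SE 0.34). Its difference was 0.70, with an unadjusted p under 0.05, without replicate number 4, and -0.080 without number 1. Chst13 differed by -0.05 (SE 0.19). Chst15, which adds a further sulfate to chondroitin already sulfated by these enzymes, differed by -0.03 (SE 0.29). Chst3 and Chst7, the sulfotransferases for the other common position, were under the array median on all arrays. Chst3 was at 2.63 to 3.07 in ventral and 2.55 to 2.86 in dorsal tissue.

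Dermatan sulfate arises when Dse epimerises chondroitin, after which Chst14 and Ust add sulfate. Dse differed by -0.20 (SE 0.21), Chst14 by 0.08 (SE 0.17) and Ust by -0.20 (SE 0.19). In all, 4 of 10 tested chondroitin and dermatan enzymes had a higher and 6 a lower mean in ventral tissue. With all 8 arrays, 0 had an unadjusted p under 0.05 in limma.

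Hyaluronan is made at the plasma membrane by the Has synthases and is not sulfated. Has2, the synthase required for heart development in mice, had 5.41, 5.46, 5.83 and 4.88 in ventral arrays 1 to 4, against 5.06, 5.62, 6.43 and 5.37 in dorsal arrays 1 to 4. The ranges overlapped, and the difference was -0.23 (SE 0.22, unadjusted p = 0.328). Has1 differed by 0.16 (SE 0.24), and Has3 was under the array median on all arrays.

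Genes around the enzymes were read from lists of core proteins, sugar supply, breakdown and receptors. Of 10 tested chondroitin sulfate core and link proteins, 7 were lower in ventral tissue and 3 higher, and 0 passed over all genes. At an unadjusted p under 0.05 there were 3 lower and 2 higher ones, against 4.18% and 4.08% of all genes tested. Acan, the aggrecan core protein, had 3.33, 3.27, 3.69 and 3.03 in ventral arrays 1 to 4, against 4.50, 7.65, 6.66 and 5.29 in dorsal arrays 1 to 4. Hapln1, the link protein that ties aggrecan to hyaluronan, had 5.73, 4.92, 5.08 and 5.18 in ventral arrays 1 to 4, against 7.03, 9.47, 8.42 and 4.99 in dorsal arrays 1 to 4. Dorsal arrays 2 and 3 were the highest for each, as they were for Papss2, Slc26a2 and Ugdh. The difference of Acan was -2.69 (SE 0.47, adjusted p = 0.202) and that of Hapln1 was -2.25 (SE 0.71, adjusted p = 0.448), or -1.48 without replicate number 2.

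**Figure D3:**
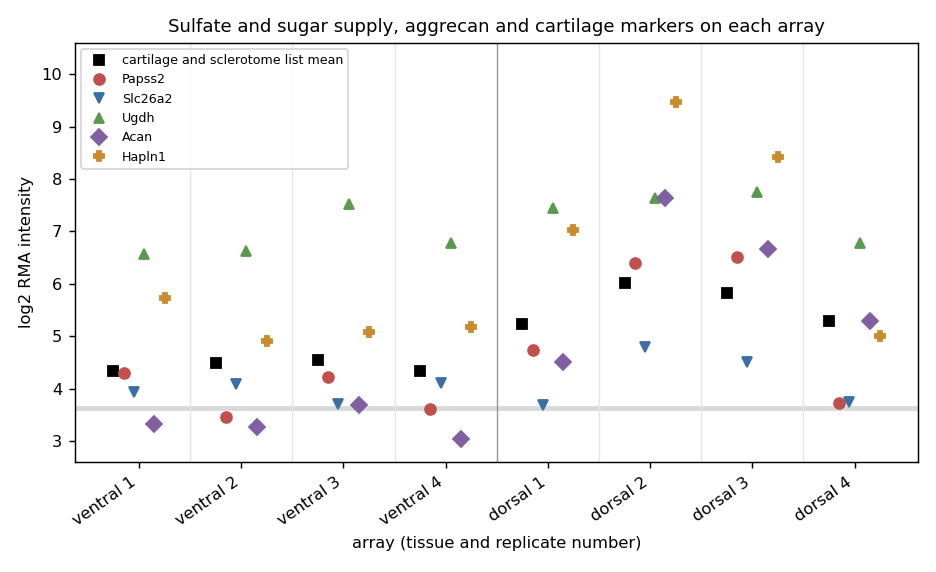
Values (log2 RMA intensity) of Papss2, Slc26a2, Ugdh, Acan and Hapln1 and the mean of 18 cartilage and sclerotome genes on each of the 8 arrays, ventral on the left and dorsal on the right. The grey band is the range of array medians. Papss2, Slc26a2, Ugdh, Acan, Hapln1 and the list mean are all highest on dorsal arrays 2 and 3.

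The cartilage and sclerotome list averaged 5.23, 6.01, 5.83 and 5.28 on dorsal arrays 1 to 4, with 17 of its 18 genes lower in ventral tissue and 2 under the array median throughout. Its member Col2a1 was at 4.57 to 5.04 on ventral and 6.93 to 8.18 on dorsal arrays, with an adjusted p = 0.0717 in limma, or 0.0222 without the replicate number in the fit. The list was highest on dorsal arrays 2 and 3, where Papss2, Slc26a2 and Ugdh were also highest. That pattern was not particular to sulfate supply and aggrecan genes, since Sulf2, Glce, Chsy1, Gpc3 and Uxs1 were among others highest on these arrays. On dorsal arrays 1 and 4 the list still exceeded its ventral range (4.33 to 4.54). Slc26a2 was at 3.69 and 3.74 on those arrays (3.70 to 4.11 on ventral arrays), and Papss2 at 4.73 and 3.73 (3.46 to 4.29 on ventral arrays). The part of the list in these values was not tested. Sox9, the main transcription factor of cartilage, differed by -1.09 (SE 0.29, adjusted p = 0.361).

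Cspg4, a chondroitin sulfate proteoglycan of pericytes and young cartilage, was lower on every ventral array (3.25 to 3.86) than on any dorsal array (4.07 to 4.73), a difference of -0.80 (SE 0.16, adjusted p = 0.226). The widespread core protein Vcan differed by -0.10 (SE 0.12). The small proteoglycans Dcn and Bgn were the 2 higher in ventral tissue, by 1.64 (SE 0.60) and 0.53 (SE 0.21). Dcn was lower in ventral tissue in replicate number 4, with dorsal array 4 at 8.79 inside the ventral range, and differed by 2.49 without that number. Bgn had an unadjusted p = 0.212 without the replicate number in the fit. Of 12 tested heparan sulfate core proteins 5 were higher and 7 lower in ventral tissue. At an unadjusted p under 0.05 there was 1 of them (8.33%), against 8.26% of all genes tested. The only one with an unadjusted p under 0.05 was the glypican Gpc3, at 9.63 to 10.31 in ventral and 10.11 to 10.74 in dorsal tissue, a difference of -0.36 (SE 0.10, adjusted p = 0.406). Its unadjusted p was 0.087 without the replicate number in the fit. Gpc2 and the syndecan Sdc1 differed by -0.26 (SE 0.23) and -0.24 (SE 0.22).

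Further supply genes numbered 11 tested, of which 3 were higher and 8 lower in ventral tissue. At an unadjusted p under 0.05 there was 1 (9.09%), against 8.26% of all genes tested. That was Bpnt2, the Golgi phosphatase that clears the by-product of sulfation, and it lay on the ventral side: 5.93, 5.76, 6.01 and 5.88 in ventral arrays 1 to 4, against 5.44, 5.66, 5.23 and 4.78 in dorsal arrays 1 to 4. The groups did not overlap, and the difference was 0.62 (SE 0.22, unadjusted p = 0.024, adjusted p = 0.517). The PAPS transporter Slc35b3 differed by -0.45 (SE 0.21) and Uxs1, which makes UDP-xylose for the linker, by -0.47 (SE 0.29). The median of these 11 genes was -0.26.

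Breakdown genes with low p-values lay on the ventral side. Of 11 tested, 7 were higher and 4 lower in ventral tissue, and 3 had an unadjusted p under 0.05, all higher, against 4.08% (8.26% in either direction) of all genes tested. Of the 4 lower ones, 2 were lower in all 4 replicate numbers, Idua and Hgsnat, which were named after their values were seen. Hexa, a subunit of the lysosomal hexosaminidase, had 5.45, 5.31, 4.74 and 5.10 in ventral arrays 1 to 4, against 4.20, 3.60, 4.63 and 4.00 in dorsal arrays 1 to 4. The lysosomal glucuronidase Gusb stood at 4.29 to 5.32 in ventral and 3.53 to 4.26 in dorsal tissue, and the hyaluronidase Hyal2 at 5.27 to 6.09 and 4.93 to 5.23. These 3 were picked by their low p-values, which favours groups that do not overlap, and none of them overlapped between the tissues. They were 3 of the 11 tested (27.3%), against 4.39% of all genes tested. Their differences were 1.05 (SE 0.27, adjusted p = 0.329), 0.77 (SE 0.22, adjusted p = 0.401) and 0.63 (SE 0.21, adjusted p = 0.483). All 12 macrophage genes were also higher in ventral tissue by their means, and none was under the array median throughout. Their list means were 4.98 to 5.64 on ventral and 4.51 to 4.96 on dorsal arrays. In replicate numbers 1 to 4 the macrophage list differed by 1.04, 0.96, 0.50 and 0.01. Hexa differed by 1.25, 1.71, 0.11 and 1.11, Gusb by 0.06, 1.07, 1.18 and 0.78, and Hyal2 by 0.25, 0.86, 0.33 and 1.07. The part of the macrophage genes in these values was not tested.

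Keratan sulfate enzymes numbered 6 tested, 5 higher (83.3%, against 49.2% of all genes tested) and 1 lower. At an unadjusted p under 0.05 there was 1 (16.7%), against 8.26% of all genes tested. That was the galactosyltransferase B4galt4, at an unadjusted p = 0.025 in limma (difference 0.43, SE 0.15, adjusted p = 0.519). It exceeded the array median on 3 ventral arrays and 1 dorsal array, so background may limit its dorsal values. B3gnt2 and Chst2 differed by 0.20 and -0.16. The 4 other enzymes of heparan and dermatan sulfate that were tested included Pxylp1, Dsel and Fam20b, which acts on the linker xylose, with differences of -0.24, 0.09 and -0.06. Among hyaluronan receptors, Stab1, Hmmr and Lyve1 differed by 0.24, -0.16 and -0.11. None of the genes in these 3 lists passed over all genes.

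**Figure D4:**
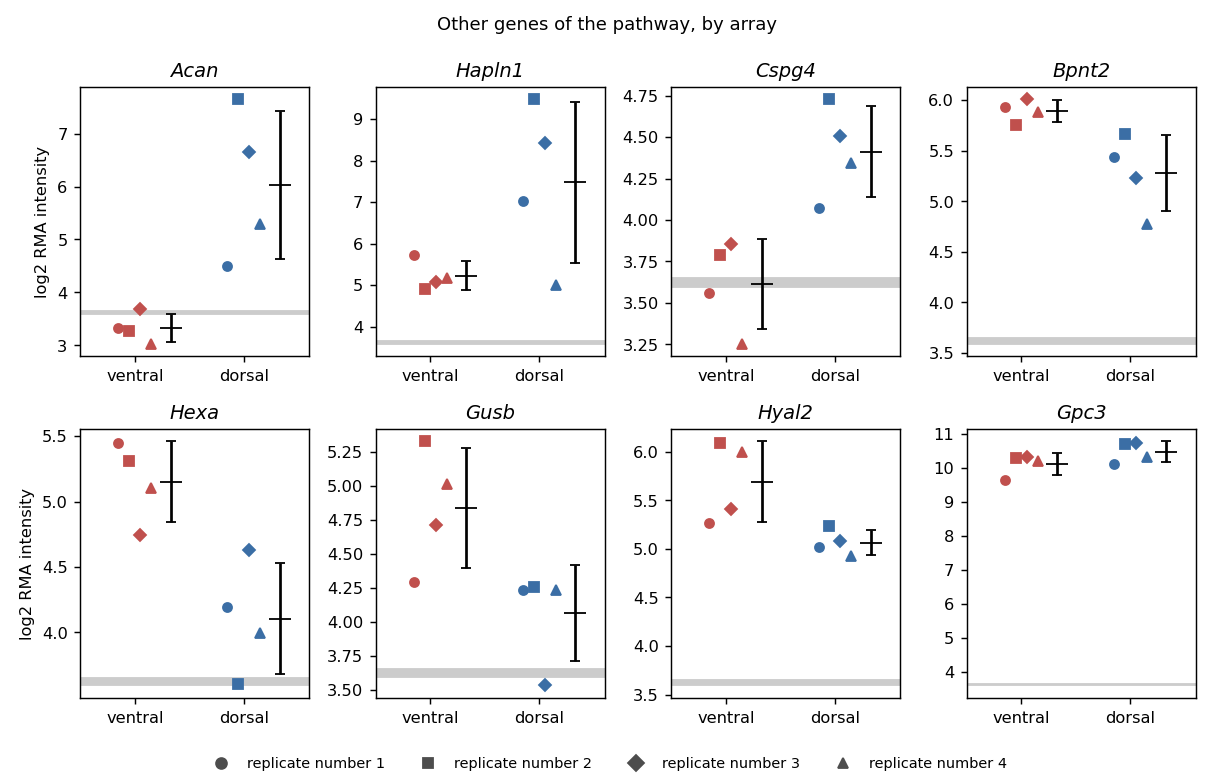
Values (log2 RMA intensity) of 8 genes around the enzymes, ventral arrays in red on the left of each panel and dorsal arrays in blue on the right, with a symbol for each replicate number. Black lines are means ± SD (n = 4 each) and grey bands the range of array medians, and vertical scales differ between panels. Acan and Cspg4 are lower, and Bpnt2, Hexa, Gusb and Hyal2 higher, on every ventral array than on any dorsal one.

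The 14 enzymes that were not tested had values between 2.30 and 3.98 on all arrays, and 7 of them (Extl1, Ndst3, Ndst4, Hs6st3, Chst3, Chst7 and Has3) never exceeded the array median. Of the 31 tested, 27 exceeded it on all 8 arrays. The remaining 4 were Xylt2, Chst12, Ust and Papss2, which exceeded it on 3, 4, 1 and 2 ventral arrays and on 2, 1, 3 and 4 dorsal arrays. For these 4 and the untested ones, background limits what the arrays can show.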

How the data were processed

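The authors deposited log2 RMA intensities, made with Affymetrix Expression Console and RMA per the submitters' processing notes; versions, array definition and genome build are not given in the sources used here. Per the labels' protocols, picogram amounts of RNA were amplified before labelling, which can add spread for weakly expressed genes. Of 25429 rows, 24675 had 1 symbol in the platform table and 754 had none and were not used. RefSeq (GRCm38.p6) symbols for the Entrez numbers were the same.

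Ventral minus dorsal was tested with limma 3.58.1 in R 4.3.3 (lmFit, eBayes with trend and robust estimation), two-sided, with a fixed block for replicate number, because the labels take ventral and dorsal tissue from the same embryos. P-values were adjusted by Benjamini-Hochberg over 12416 genes, with a threshold of 0.05. The fit was tested on simulated data. Alternatives were no block, a random block, other filters, plain eBayes, rescaled arrays, array weights and leaving out each replicate number. The members and lists were chosen with earlier results of these data known. Genes with full values were the members with an unadjusted p under 0.05, up to 3 of lowest p per pathway list and fixed names (among them Has2, Chst3, Chst11, Slc26a2, Vcan and Sox9). Hs3st1, Chsy3, Chst12, Dcn, Bgn, Idua, Hgsnat and Col2a1 were chosen after their values were seen. The number of arrays limits the precision, and no label says that a number is 1 embryo, so p-values reflect the spread among these arrays.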

Additional observations from a re-analysis of the deposited data

Results flagged for a closer look

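In 118 groups of 4 arrays examined (59 named genes in each tissue), 6 held an array far from the other 3 by Dixon's test, where chance gives about 1 in 20, or 5.9. Among the enzymes, Xylt1 on dorsal array 4 was 4.20, with 4.83 to 4.88 on the other dorsal arrays, and Dse on dorsal array 1 was 4.06, with 4.92 to 5.001 on the others. Around them, Chst2 was 4.46 on ventral array 4, with 3.91 to 3.93 on the other ventral arrays. Gpc3 was 9.63 on ventral array 1, with 10.21 to 10.31 on the others. Sdc1 was 6.57 on dorsal array 3, with 5.62 to 5.77 on the others, and Gusb was 3.53 on dorsal array 3, with 4.23 to 4.26 on the others.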

How the results depend on the processing

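Under all 12 alternatives 0 enzymes were called. Over all genes, limma called 0 in the reported fit, 4 with no replicate block, 4 with a random replicate block, 10 with the stricter filter and 0 to 9 when a replicate number was left out (9 without number 1). Enzymes at an unadjusted p under 0.05 numbered 6, against 4 with no replicate block and 3 to 5 when a number was left out (3 without number 2: Ext1, Ndst2 and Xylt1). Pairing by replicate number is not stated in the labels beyond a shared origin of the tissues in the same embryos. Arrays that share a number had deviations from the mean of their tissue that correlated at 0.02 to 0.12, 2 of 4 above 0.1. Between different numbers the correlations were -0.126 to 0.102, with 1 above 0.1, so the ranges overlapped. Of 8 arrays, 5 correlated best with their own number. The median difference of the enzymes stayed within the spread between replicate numbers. For 59 named genes, 19 of 675 values changed sign, all when a replicate number was left out and none past the threshold. In 4 others a named gene passed it, each time Col2a1 (no block, random block, stricter filter and without number 1). The differences of the 15 genes concerned over the 4 omissions, with the omitted numbers that turned the sign in brackets, were Xylt2 -0.060 to 0.18 (1 and 3), B3gat3 -0.11 to 0.18 (3), Ext2 -0.13 to 0.095 (2 and 3), Glce -0.51 to 0.053 (3), Hs3st3b1 -0.091 to 0.11 (4), Hs6st1 -0.18 to 0.073 (4), Chsy1 -0.079 to 0.073 (2 and 3), Chsy3 -0.044 to 0.65 (2), Chst12 -0.080 to 0.70 (1), Chst13 -0.17 to 0.10 (4), Chst15 -0.30 to 0.28 (1 and 2), Has1 -0.035 to 0.37 (2), Fam20b -0.16 to 0.23 (2), Hmmr -0.45 to 0.22 (2) and Lyve1 -0.36 to 0.27 (4). The cause was not tested beyond the smaller number of arrays. For genes near the array median, background limits the size of a difference.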
